A study of Rattus norvegicus with 11 samples.

Results

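Phase II conjugation enzymes attach a polar group to drugs, hormones, bile acids and other lipophilic compounds. The genes described here are those whose symbol belongs to 1 of 4 enzyme classes: the UDP-glucuronosyltransferases (Ugt), the cytosolic and mitochondrial glutathione S-transferases (Gst), the microsomal glutathione S-transferases (Mgst) and the sulfotransferases (Sult). They were found by matching symbols, but the choice of these classes was made with earlier results of these data known. There were 30 of them among the 11427 genes tested: 16 Gst, 7 Sult, 5 Ugt and 2 Mgst genes.

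Expression was measured in rat small intestine with 11 Affymetrix arrays, 1 per sample, in tissue labelled as taken 6 hours after brain death or, for NBD, at 6 hours of ventilation. The BD_VNS group (4 arrays, replicates 1 to 4) came from brain-dead rats that also received vagal stimulation. The BD group (4 arrays, replicates 1, 3, 4 and 6) came from brain-dead rats without it. The NBD group (3 arrays, replicates 1, 3 and 4) came from anaesthetised, ventilated rats that were not brain-dead by their titles, although the source entry of these samples also names BD animals. The labels describe all of the rats as transgenic and give no allele, strain or age. They do not say whether each array stands for a separate animal, so p-values measure the spread between these arrays, which may in part be technical. All levels below are log2 values of 1 probe set per gene, and a difference of 1 is a 2-fold difference. Levels of different genes are not set against each other, because probe sets differ in how strongly they bind.

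The enzyme classes differ in what they transfer and where they work. Sulfotransferases move a sulfonate group from the donor PAPS to phenols and steroids in the cytosol. Glucuronosyltransferases add glucuronic acid in the endoplasmic reticulum, and glutathione S-transferases join glutathione to reactive, electrophilic compounds. The absorptive cells of the small intestine, the enterocytes, hold all of these activities and meet ingested compounds before the liver does.

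The labelled tissue was checked against markers. The mean log2 level of 15 measured enterocyte genes (24 listed), among them the fatty acid binding protein gene Fabp1 and the sucrase-isomaltase gene Si, ran from 12.47 to 12.59 in BD_VNS, from 12.23 to 12.48 in BD and from 12.50 to 12.60 in NBD. None of the 15 lay under the 25th percentile of all genes by mean level. Of 18 hepatocyte genes, 12 lay under that percentile. Transcripts of the exocrine pancreas stood high in BD 4 and BD 6, with means over 20 of 24 listed acinar genes of 13.39 and 12.70. The same mean was 7.56 in BD_VNS 3 and 7.41 in BD_VNS 4, against 6.85 to 6.98 in the remaining arrays. BD_VNS 3 and BD_VNS 4 stayed in the fits without BD 4 and BD 6. The mean log2 ratio of 3' to 5' control probe sets for Gapdh and beta-actin, a sign of RNA quality, was 0.75 to 1.10 in BD_VNS, 0.76 to 0.89 in BD and 0.69 to 0.87 in NBD. Calls of the named genes that were lost without BD 4 and BD 6, or with this ratio in the model, are given beside the result.

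Promoters of neighbouring pairs of genes are shown first, since one pair moved together and the other moved apart. Ugt2b7 and Ugt2b35 lie next to each other on chromosome 14 and both rose against NBD. Gsta1 and Gsta3 lie next to each other on chromosome 9 and moved in opposite directions in BD_VNS against NBD. The sequences are the 250 bases before the annotated start, 5' to 3' on the gene's strand, from RefSeq on GRCr8. The promoters of 25 of the 30 genes were found, and those without one were Gstm6l, Gstt1, Gstt2, Mgst2 and Ugt2a1. Capitals mark runs of 12 or more bases that the promoter shares with that of its partner. Ugt2b7 is at chr14:21251285-21251534 (plus strand) and Ugt2b35 at chr14:21208191-21208440 (plus strand), and Gsta1 is at chr9:31216533-31216782 (minus strand) and Gsta3 at chr9:31154739-31154988 (plus strand).
Ugt2b7: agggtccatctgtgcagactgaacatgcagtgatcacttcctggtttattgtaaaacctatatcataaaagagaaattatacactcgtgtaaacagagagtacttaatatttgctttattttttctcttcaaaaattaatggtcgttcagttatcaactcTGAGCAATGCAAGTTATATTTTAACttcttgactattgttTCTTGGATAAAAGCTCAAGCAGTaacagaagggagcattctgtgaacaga
Ugt2b35: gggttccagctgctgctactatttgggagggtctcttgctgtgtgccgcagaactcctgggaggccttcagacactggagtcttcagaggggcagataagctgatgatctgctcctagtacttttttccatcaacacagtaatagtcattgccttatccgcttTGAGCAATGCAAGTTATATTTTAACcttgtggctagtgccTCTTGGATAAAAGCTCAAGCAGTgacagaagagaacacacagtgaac
Gsta1: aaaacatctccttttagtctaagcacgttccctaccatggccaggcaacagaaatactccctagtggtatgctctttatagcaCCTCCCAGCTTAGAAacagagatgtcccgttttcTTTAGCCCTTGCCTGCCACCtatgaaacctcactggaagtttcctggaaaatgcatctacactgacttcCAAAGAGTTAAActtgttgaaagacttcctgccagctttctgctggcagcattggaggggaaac
Gsta3: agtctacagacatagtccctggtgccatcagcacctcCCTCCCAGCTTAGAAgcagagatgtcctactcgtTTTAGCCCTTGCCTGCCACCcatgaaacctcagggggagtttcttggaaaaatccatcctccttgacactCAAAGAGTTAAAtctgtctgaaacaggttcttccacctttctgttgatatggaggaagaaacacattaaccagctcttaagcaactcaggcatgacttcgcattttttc
The longest run shared by the Ugt2b7 and Ugt2b35 promoters was 25 bases, the longest among all 300 pairs of the 25 promoters. Gsta1 and Gsta3 came next with 20 bases, and the median over the pairs was 8. In each of the 4 promoters the shared runs covered 47 or 48 bases.

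The promoter of Sult1a1 is shown because this gene had the largest change of the 30 in both comparisons with NBD. It is at chr1:190706113-190706362 (minus strand, 250 bases before the annotated start). Capitals mark a match to the half-site AGAACA of the glucocorticoid receptor, searched on both strands.
Sult1a1: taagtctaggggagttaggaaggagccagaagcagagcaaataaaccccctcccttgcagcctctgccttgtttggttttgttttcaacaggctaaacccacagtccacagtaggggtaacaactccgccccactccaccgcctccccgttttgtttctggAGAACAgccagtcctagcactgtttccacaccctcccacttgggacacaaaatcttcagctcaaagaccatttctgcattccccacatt
The match begins 89 bases before the annotated start. The same 6 letters were found in 5 of the 25 promoters (Gstm1, Sult1a1, Sult1c2, Sult1c3 and Ugt2b35) and in 17.5% of all 33469 promoters of this length. The antioxidant response element core TGACNNNGC was found in 3 of the 25 (Gsta3, Gstm5 and Gstm7) and in 10.1% of all, the aryl hydrocarbon receptor core GCGTG in 5 and in 25.9%, and the HNF1 half-site GTTAAT in 1 (Gsta3) and in 6.45%. All were searched on both strands, TGACNNNGC and GCGTG can overlap at a shared GC, and a match describes the sequence only.

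BD was set against NBD to see what brain death did to these genes. Both changed sulfotransferase genes, Sult1a1 and Sult1b1, were lower in BD, while the glucuronosyltransferase genes Ugt2b7 and Ugt2b35 were higher. The glutathione transferase genes Gstm5, Gstm6l and Mgst2 were lower. In all, 7 of 30 genes passed at an adjusted p under 0.05 with limma, 2 higher and 5 lower, or 23.3%. Of all genes tested 5.73% passed, 2.10% higher and 3.63% lower. The median log2 fold change of the 30 was -0.04, against -0.01 for all genes. Arrays of the groups did not overlap for 8 of the 30, against 20.4% of all genes.

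Sult1a1 (Entrez Gene 83783) encodes a phenol sulfotransferase. Its log2 level was 6.96, 7.06, 7.35 and 7.41 in BD 1, 3, 4 and 6, against 8.83, 8.35 and 8.86 in NBD 1, 3 and 4. All BD arrays lay far below all NBD arrays, and the BD arrays with pancreatic transcripts were the higher 2 of the 4. The mean was 7.19 ± 0.22 in BD (SD, n = 4) and 8.68 ± 0.29 in NBD (SD, n = 3), so that Sult1a1 was 2.80-fold lower (change of -1.49 ± 0.13 on the log2 scale, SE; limma adjusted p = 8.46e-05). Sult1a1 passed in all 21 alternatives in which it was tested, and its change was -1.67 without BD 4 and BD 6 (adjusted p = 0.000216).

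Sult1b1 (Entrez Gene 64305), which sulfates phenols and thyroid hormones, changed less. Its level was 11.79, 11.83, 11.60 and 11.70 in the BD arrays, against 12.18, 12.02 and 12.16 in the NBD arrays. The groups did not overlap, and the change was -0.39 ± 0.07 (SE; limma adjusted p = 0.00592). Without BD 4 and BD 6 it was -0.31 (adjusted p = 0.0543). Enterocyte markers moved the same way: 5 of 15 were lower and 0 higher in BD, with a median change of -0.25, and their part in the fall of Sult1b1 was not tested. Fewer cells of a type and less RNA per cell cannot be told apart in this tissue. The other 5 sulfotransferase genes did not pass. Sult1c2, singled out after its values were seen, had the largest change among them, at 8.05 in BD 1 and 8.96 to 9.35 in the other 3 BD arrays, against 8.22 to 8.46 in NBD (0.51, 95% interval 0.01 to 1.01, limma adjusted p = 0.252).

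Ugt2b7 (Entrez Gene 286989) and Ugt2b35 (Entrez Gene 83808) belong to a subfamily that conjugates steroids, bile acids and drugs. Ugt2b7 was at 9.03, 9.74, 8.79 and 9.34 in the BD arrays, against 8.27, 7.95 and 8.43 in the NBD arrays. Ugt2b35 was at 9.36, 9.31, 9.20 and 9.41 in BD, against 8.89, 8.56 and 8.70 in NBD. Every BD array was above every NBD array for both genes, and in both NBD 3 was the lowest of all arrays. Ugt2b7 was 2.01-fold higher (log2 fold change 1.01 ± 0.24, SE; limma adjusted p = 0.03). Ugt2b35 was 1.52-fold higher (0.60 ± 0.14; limma adjusted p = 0.0305). The call of Ugt2b7 was lost without BD 3, BD 6, NBD 1, NBD 3 or NBD 4 (adjusted p 0.0566 to 0.144), with trended and robust variances (0.0713), with a replicate block (0.13) and without both BD 4 and BD 6 (1.17, adjusted p = 0.0538). That of Ugt2b35 was lost without BD 1, BD 3, BD 6 or any 1 NBD array (adjusted p 0.0508 to 0.146) and without both BD 4 and BD 6 (0.62, adjusted p = 0.113). These genes are members of a family of similar copies, so their probe sets may measure more than 1 of them. The remaining Ugt genes changed by -0.08 to 0.11 and did not pass: Ugt2b1, Ugt2a1, known from the olfactory epithelium, and Ugt8, which makes galactolipids of myelin.

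Among glutathione transferase genes the mu class was lower in part. All 7 Gstm genes had a negative change in BD, as did 6051 of all 11427 genes, and 2 of the 7 passed. Gstm6l (Entrez Gene 295362) was at 6.78, 6.61, 6.74 and 6.74 in the BD arrays, against 6.95, 7.11 and 7.16 in the NBD arrays. Gstm5 (Entrez Gene 64352) was at 8.56, 8.34, 8.43 and 8.37 in BD, against 8.67, 8.71 and 8.72 in NBD. Neither gene overlapped between the groups, and the differences were small beside those of Sult1a1. The change was -0.36 ± 0.06 for Gstm6l (SE; limma adjusted p = 0.00672) and -0.28 ± 0.07 for Gstm5 (adjusted p = 0.0309). Gstm6l lost its call with a replicate block (-0.36, adjusted p = 0.0521). Gstm5 lost it with the block (adjusted p = 0.0989), without BD 3, BD 4, BD 6 or any 1 NBD array (adjusted p 0.0588 to 0.112), and without both BD 4 and BD 6 (-0.25, adjusted p = 0.16). Gstm6l lay at the 19.4th percentile of all genes by mean level, where background signal, which was not estimated, could compress fold changes. Both genes sit side by side in the Gstm cluster on chromosome 2, and cross-binding of probes within this family was not tested.

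Mgst2 (Entrez Gene 295037) encodes a membrane-bound transferase that can also make leukotriene C4. It was at 12.31, 12.24, 12.20 and 12.22 in the BD arrays, against 12.39, 12.49 and 12.50 in the NBD arrays. The groups did not overlap, and the change was -0.22 ± 0.05 (SE; limma adjusted p = 0.0265). The enterocyte markers had a median change of -0.25, with a range from -0.54 to 0.07, and their part was not tested. The Mgst2 call was lost without BD 3, BD 4, BD 6, NBD 3 or NBD 4 (adjusted p 0.0598 to 0.115), with a replicate block (0.121) and without both BD 4 and BD 6 (-0.18, adjusted p = 0.169). Across the 30 genes, 2 passed without both of these arrays, Sult1a1 and Gstm6l, and 3 passed when BD 3, BD 6, NBD 3 or NBD 4 was left out alone, 4 without NBD 1 and 3 with a replicate block. Calls over all genes fell too, from 655 to 293 without both arrays and to 363 with the block. They were 461, 393, 317 and 400 without BD 3, BD 6, NBD 3 or NBD 4, and 332 without NBD 1.

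**Figure D1:**
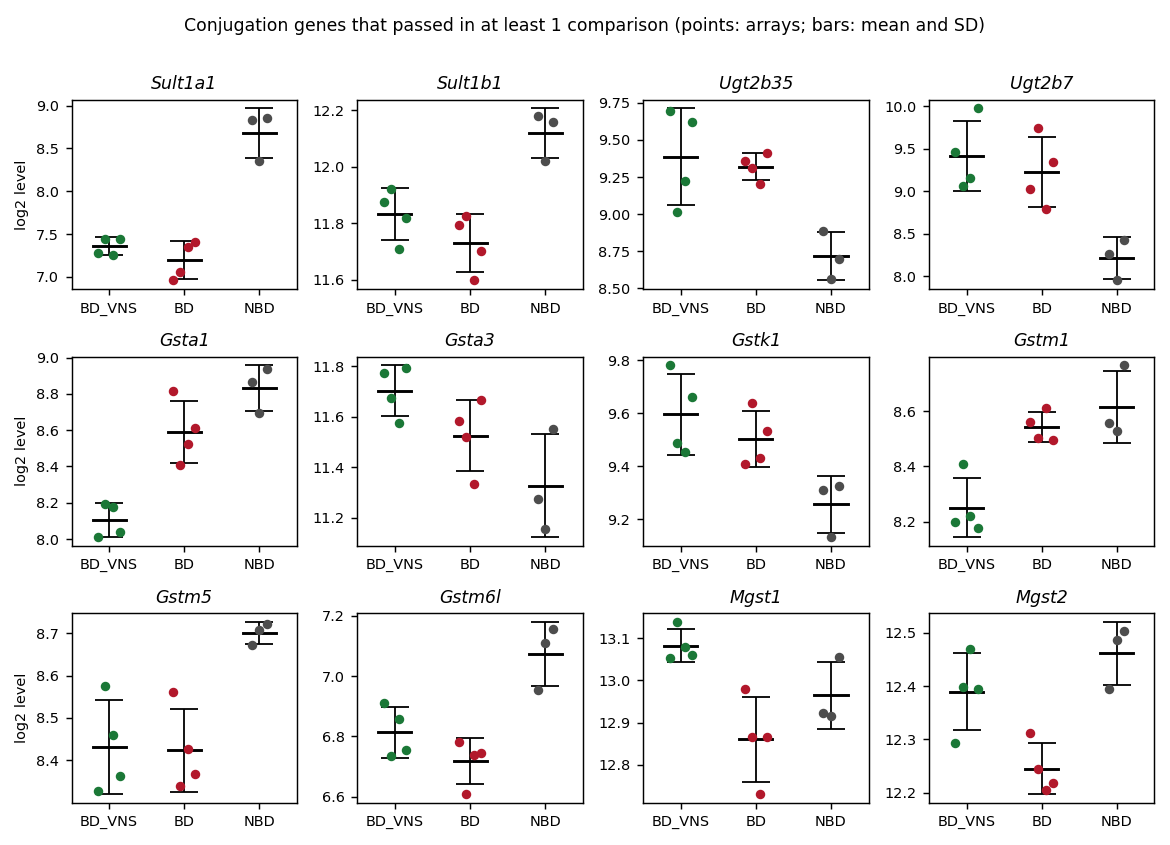
Log2 level (vertical axis) of the 12 conjugation genes that passed in at least 1 comparison, in BD_VNS (n = 4), BD (n = 4) and NBD (n = 3). Each point is 1 array, and bars give the mean and SD; each vertical axis has its own range and does not start at 0. Sult1a1 averaged 7.36 in BD_VNS and 7.19 in BD, against 8.68 in NBD, and Gsta1 averaged 8.11 in BD_VNS, against 8.59 in BD and 8.83 in NBD.

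BD_VNS was set against BD to see what vagal stimulation did to these genes in brain-dead rats. Gsta1 and Gstm1, of the alpha and mu classes, were lower with stimulation, and Mgst1 was higher. These 3 of 30 genes passed, or 10%, 1 higher and 2 lower. Of all genes tested 5.56% passed, 1.90% higher and 3.66% lower. The median change of the 30 was 0.08, against 0.03 for all genes, and 24 of 30 had a positive change, as did 7138 of all 11427. Arrays did not overlap for 4 of the 30, against 13.1% of all genes.

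Gsta1 (Entrez Gene 24421) encodes an alpha class transferase, a class that also reduces lipid hydroperoxides. Its level was 8.01, 8.20, 8.18 and 8.04 in BD_VNS 1 to 4, against 8.82, 8.41, 8.52 and 8.61 in the BD arrays. All BD_VNS arrays lay below all BD arrays. The mean was 8.11 ± 0.09 in BD_VNS and 8.59 ± 0.17 in BD (SD, n = 4 each), a 1.40-fold lower level (-0.48 ± 0.08, SE; limma adjusted p = 0.0108). The call held in each of 11 fits without 1 array, and without both BD 4 and BD 6 the change was -0.51 (adjusted p = 0.0535).

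Gstm1 (Entrez Gene 24423), a mu class transferase, was at 8.20, 8.41, 8.22 and 8.18 in the BD_VNS arrays, against 8.56, 8.50, 8.61 and 8.50 in the BD arrays. The groups did not overlap, and BD_VNS 2 came closest to the BD arrays. The change was -0.29 ± 0.06 (SE; limma adjusted p = 0.0245). The call was lost without BD_VNS 1, BD_VNS 3, BD_VNS 4, BD 1, BD 4 or BD 6 (adjusted p 0.0524 to 0.0801), with the 3' to 5' ratio in the model (-0.25, adjusted p = 0.0836) and without both BD 4 and BD 6 (-0.28, adjusted p = 0.119).

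Markers of some other cell types were also lower in BD_VNS than in BD. Enterocyte markers went the other way: 6 of 15 rose and 0 fell, with a median change of 0.20. The mean over 10 of 14 listed macrophage genes was 8.23 to 8.81 in BD_VNS, against 9.08 to 9.21 in BD, and 7 of the 10 fell. The mean over 15 of 15 fibroblast and matrix genes was 8.89 to 9.40 in BD_VNS, against 9.69 to 9.90 in BD, and 11 of the 15 fell. For both lists, as for Gstm1, BD_VNS 2 was the BD_VNS array nearest to BD. BD_VNS 2 was also nearest to BD in the 3' to 5' ratio, at 0.75 against 1.03 to 1.10 in the other BD_VNS arrays. Ratio and cell content cannot be told apart by this order of arrays. Over 6 of 9 adipocyte genes the mean was 7.11 to 7.40 in BD_VNS and 7.43 to 7.80 in BD, and 3 of the 6 fell. Few of their genes were low: 1 macrophage gene, 0 matrix genes and 2 adipocyte genes lay under the 25th percentile. Their part in the falls of Gsta1 and Gstm1 was not tested.

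Mgst1 (Entrez Gene 171341), a glutathione transferase of the endoplasmic reticulum and outer mitochondrial membrane, was at 13.05, 13.14, 13.08 and 13.06 in the BD_VNS arrays, against 12.98, 12.87, 12.73 and 12.87 in the BD arrays. Every BD_VNS array was above every BD array. The change was 0.22 ± 0.05 (SE; limma adjusted p = 0.0356), beside a median of 0.20 for the 15 enterocyte markers, of which 6 rose and 0 fell. The enterocyte part was not tested. The call was lost without BD_VNS 1, BD_VNS 3, BD_VNS 4, BD 3, BD 4, BD 6, NBD 1 or NBD 3 (adjusted p 0.0509 to 0.0858), in a fit of BD_VNS and BD alone (0.0619), with the 3' to 5' ratio in the model (0.0626), with a replicate block (0.174) and without both BD 4 and BD 6 (0.16, adjusted p = 0.194).

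The 7 genes that had passed in BD against NBD did not pass here. The change with stimulation was 0.16 for Sult1a1 (95% interval -0.11 to 0.44, limma adjusted p = 0.476), beside -1.49 for BD against NBD. It was 0.10 for Sult1b1 (-0.04 to 0.24), 0.19 for Ugt2b7 (-0.30 to 0.67) and 0.07 for Ugt2b35 (-0.22 to 0.36). It was 0.10 for Gstm6l (-0.03 to 0.22), 0.01 for Gstm5 (-0.13 to 0.14) and 0.14 for Mgst2 (0.04 to 0.25, limma adjusted p = 0.0881), beside -0.22 for Mgst2 in BD against NBD. These intervals do not show that the groups were alike: those of both Ugt genes admit a change of 0.22 in either direction. None of the 30 genes passed in both of these comparisons, which share the BD arrays. Without both BD 4 and BD 6, 0 of the 30 passed in BD_VNS against BD with limma. Over all genes, 152 passed in that fit, against 635 with all arrays.

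**Figure D2:**
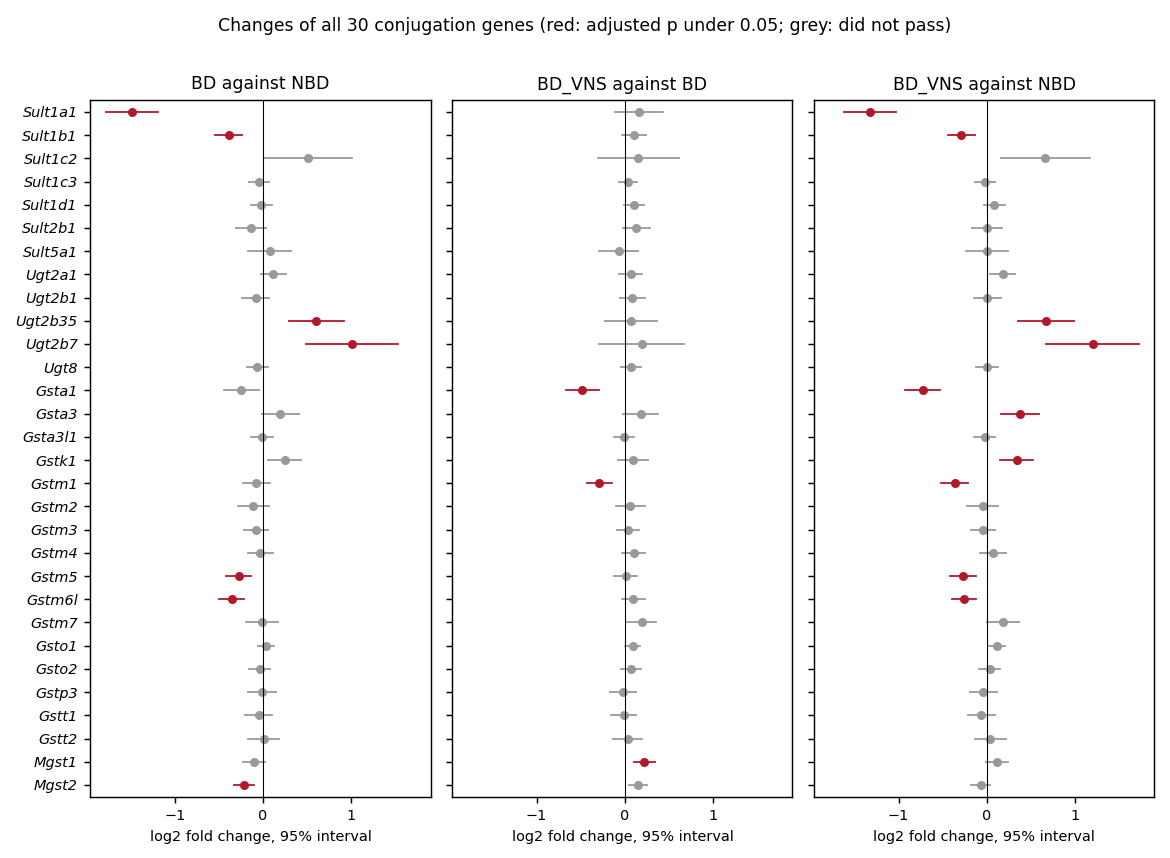
Log2 fold change with its 95% interval (horizontal axis) of all 30 conjugation genes in the 3 comparisons, ordered by class from Sult at the top to Ugt, Gst and Mgst. Red marks an adjusted p under 0.05 and grey the rest. Sult1a1 (-1.49 and -1.32) and Ugt2b7 (1.01 and 1.20) lie farthest from 0 in the comparisons with NBD, and in BD_VNS against BD the changes run from -0.48 to 0.22.

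The comparison of BD_VNS with NBD set stimulated brain-dead rats against ventilated controls. It held 10 of 30 genes that passed, or 33.3%, 4 higher and 6 lower, while 8.44% of all genes tested passed, 3.64% higher and 4.80% lower. Of the 7 genes that had passed in BD against NBD, 6 passed here too, with Mgst2 the exception (-0.07, 95% interval -0.18 to 0.04, limma adjusted p = 0.448). The NBD arrays are shared by both comparisons. Genes that passed here and not in BD against NBD were Gsta1, Gsta3, Gstk1 and Gstm1. The median change of the 30 was 0.00, against 0.01 for all genes, and 13 of the 30 did not overlap, against 20.9% of all genes.

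Sult1a1 was at 7.28, 7.45, 7.25 and 7.45 in the BD_VNS arrays, 2.50-fold below NBD (-1.32 ± 0.13, SE; limma adjusted p = 0.00022), and passed in all 21 alternatives. Sult1b1 was at 11.88, 11.92, 11.71 and 11.82 in BD_VNS, all below the NBD arrays (-0.29 ± 0.07; limma adjusted p = 0.0233). Of the 15 enterocyte markers 0 passed with limma here and 5 had an unadjusted p under 0.05, with changes from -0.28 to 0.30 and a median of -0.02, and their part was not tested. Its call was lost without BD_VNS 3, BD_VNS 4, NBD 1 or NBD 4 (adjusted p 0.0587 to 0.102).

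Ugt2b7 was at 9.47, 9.07, 9.15 and 9.98 in the BD_VNS arrays and Ugt2b35 at 9.69, 9.01, 9.22 and 9.62. Both were highest in BD_VNS 1 and 4 and lowest in BD_VNS 2, and all arrays lay above the NBD arrays. Ugt2b7 was 2.30-fold higher than in NBD (1.20 ± 0.24, SE; limma adjusted p = 0.0105) and Ugt2b35 was 1.59-fold higher (0.67 ± 0.14; adjusted p = 0.0143). The call of Ugt2b7 was lost without NBD 3 (adjusted p = 0.0541), and that of Ugt2b35 without NBD 3 or NBD 4 (adjusted p 0.0524 to 0.0739).

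The 2 alpha class neighbours went apart. Gsta1 averaged 8.11 ± 0.09 in BD_VNS and 8.83 ± 0.12 in NBD (SD, n = 4 and n = 3), where NBD 1, 3 and 4 were at 8.87, 8.69 and 8.94. It was 1.66-fold lower (-0.73 ± 0.09, SE; limma adjusted p = 0.000875) and passed in all 22 alternatives. Beside this fall, 7 of 10 macrophage genes (median change -0.62) and 5 of 15 fibroblast and matrix genes (-0.31) were lower. So were 3 of 6 adipocyte genes (-0.70), and 0 of each list were higher. Of the 15 enterocyte markers 0 passed, and of 10 smooth muscle genes 3 rose and 0 fell. The part of these cells was not tested. Gsta3 (Entrez Gene 494500), which is also an alpha class transferase gene, was at 11.77, 11.67, 11.57 and 11.79 in BD_VNS, against 11.28, 11.15 and 11.55 in NBD. Its arrays did not overlap, though BD_VNS 3 and NBD 4 lay close together. Gsta3 was higher by 0.38 ± 0.10 (SE; limma adjusted p = 0.0365), and lost its call without BD_VNS 1, BD_VNS 4, NBD 1 or NBD 3 (adjusted p 0.0873 to 0.158) and with a replicate block (adjusted p = 0.0655). In BD the level of Gsta1 was between those of the other groups, and BD against NBD did not pass (-0.24, 95% interval -0.44 to -0.04, limma adjusted p = 0.163).

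Gstk1 (Entrez Gene 297029), the kappa class transferase of mitochondria and peroxisomes, was at 9.78, 9.49, 9.45 and 9.66 in the BD_VNS arrays, against 9.31, 9.13 and 9.33 in the NBD arrays. The groups did not overlap, and Gstk1 was higher by 0.34 ± 0.09 (SE; limma adjusted p = 0.0323). In BD it was at 9.41 to 9.64, also above every NBD array, and that comparison did not pass (0.25, 95% interval 0.06 to 0.43, limma adjusted p = 0.134). The Gstk1 call in BD_VNS was lost without BD_VNS 1, BD_VNS 4, NBD 1, NBD 3 or NBD 4 (adjusted p 0.0571 to 0.144) and with a replicate block (adjusted p = 0.0615).

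In the mu class, 3 of 7 genes were lower in BD_VNS than in NBD. Gstm1 fell by 0.36 (NBD arrays at 8.56, 8.53 and 8.77; limma adjusted p = 0.00823). Gstm5 was at 8.33, 8.58, 8.46 and 8.36 in BD_VNS and changed by -0.27 ± 0.07 (SE; limma adjusted p = 0.0288). Gstm6l was at 6.91, 6.73, 6.86 and 6.75 in BD_VNS and changed by -0.26 ± 0.06 (adjusted p = 0.0279). The call of Gstm1 held in each of 11 fits without 1 array. That of Gstm5 was lost without BD_VNS 1, BD_VNS 3, BD_VNS 4 or any 1 NBD array (adjusted p 0.0522 to 0.0979), and that of Gstm6l without BD_VNS 4, NBD 3 or NBD 4 (adjusted p 0.0791 to 0.112) and with a replicate block (adjusted p = 0.109). Beside the fall of Gstm1, the macrophage list was at 8.23 to 8.81 in BD_VNS and 9.01 to 9.23 in NBD, and its part was not tested.

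The 3' to 5' ratio moved with this comparison, at 0.98 ± 0.16 in BD_VNS (SD, n = 4) and 0.77 ± 0.09 in NBD (SD, n = 3). With this ratio in the model, 2 of 30 genes passed, Sult1a1 and Gsta1, and calls over all genes fell from 965 to 363. The changes of the other 8 conjugation genes that had passed kept their direction. They were 0.75 for Ugt2b7 (limma adjusted p = 0.149), 0.39 for Ugt2b35 (0.196), 0.26 for Gsta3 (0.28) and 0.20 for Gstk1 (0.298). They were -0.30 for Gstm1 (limma adjusted p = 0.105), -0.14 for Gstm5 (0.296), -0.31 for Gstm6l (0.0764) and -0.24 for Sult1b1 (0.178). Without NBD 1, NBD 3, NBD 4 or BD_VNS 4 the count was 6, 4, 5 and 5 of 30, and over all genes it was 494, 508, 591 and 570.

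**Figure D3:**
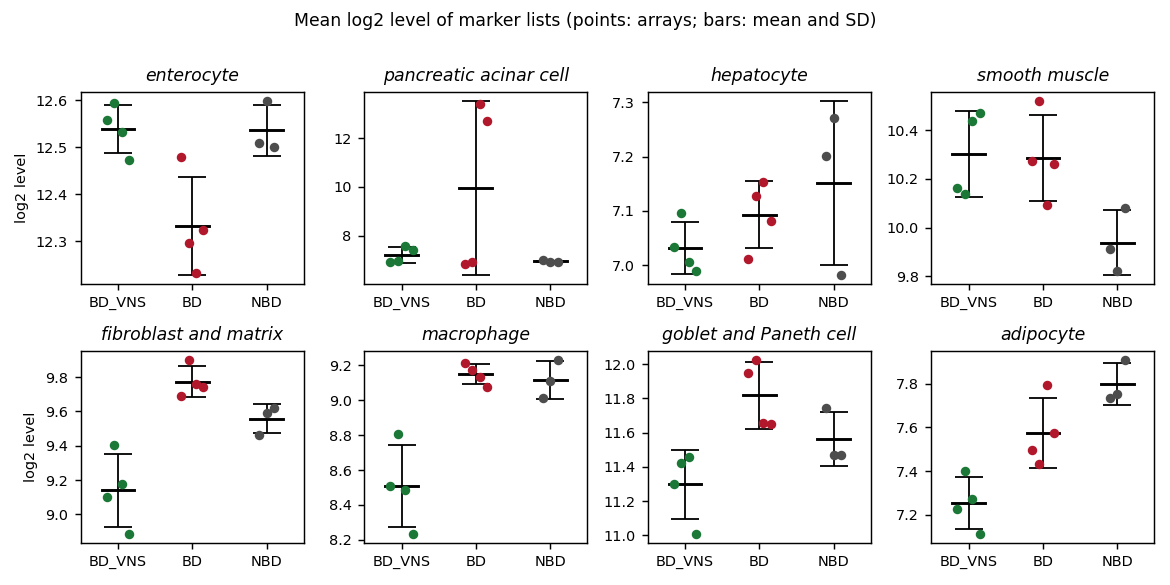
Mean log2 level (vertical axis) of 8 lists of cell type markers in each array of BD_VNS (n = 4), BD (n = 4) and NBD (n = 3); bars give mean and SD, and each vertical axis has its own range. The enterocyte mean was 12.47 to 12.59 in BD_VNS and 12.23 to 12.48 in BD, against 12.50 to 12.60 in NBD, the acinar mean was above 12 in BD 4 and BD 6, and the macrophage mean was 8.23 to 8.81 in BD_VNS, below all BD and NBD arrays.

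Smooth muscle and mucus or Paneth cell genes also moved. Of 10 measured smooth muscle genes (12 listed), 3 rose and 0 fell in BD_VNS against NBD, and likewise in BD against NBD. Of 7 measured goblet and Paneth cell genes (12 listed), 3 fell and 0 rose in BD_VNS against BD. The part of these cells in the changes of the conjugation genes was not tested.

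The remaining 18 of the 30 genes passed in no comparison. They were Gsta3l1, Gstm2, Gstm3, Gstm4, Gstm7, Gsto1, Gsto2, Gstp3, Gstt1, Gstt2, Sult1c2, Sult1c3, Sult1d1, Sult2b1, Sult5a1, Ugt2a1, Ugt2b1 and Ugt8. Their log2 fold changes ran from -0.13 to 0.51 in BD against NBD, from -0.07 to 0.19 in BD_VNS against BD and from -0.06 to 0.66 in BD_VNS against NBD, and the upper ends in both comparisons with NBD belong to Sult1c2. Sult1c2 averaged 9.01 ± 0.12 in BD_VNS and 8.34 ± 0.12 in NBD (SD, n = 4 and n = 3) and did not pass (limma adjusted p = 0.0997). Of the 30 genes, 6 lay under the 25th percentile by mean level (Gsta3l1, Gstm6l, Gstp3, Sult1c3, Sult1d1 and Ugt8), where a change could be hard to see. The 7 above the 90th percentile were Gsta3, Gstm2, Gsto1, Mgst1, Mgst2, Sult1b1 and Sult2b1. Sult2b1 sulfates cholesterol and related steroids, and Gsto1 reduces thiol-linked substrates.

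Genes that supply, follow or control conjugation were examined as lists. Beside the counts of these and of the marker lists, the shares of all genes that passed higher and lower are given here. They were 2.10% and 3.63% in BD against NBD, 1.90% and 3.66% in BD_VNS against BD, and 3.64% and 4.80% in BD_VNS against NBD. Of 13 measured genes of cofactor supply (18 listed), 1 rose and 1 fell in BD against NBD, 0 passed in BD_VNS against BD, and 1 rose in BD_VNS against NBD. In BD_VNS against BD, 5 of the 13 had an unadjusted limma p under 0.05, as did 2578 of all 11427 genes. Gclc, the catalytic subunit of the enzyme that starts glutathione synthesis, was at 9.57, 9.51, 9.50 and 9.59 in the BD_VNS arrays, at 9.56, 9.34, 9.16 and 9.41 in the BD arrays and at 8.92, 9.18 and 9.05 in the NBD arrays. All BD_VNS arrays were above all NBD arrays, while a BD array overlapped NBD. Gclc was higher in BD_VNS than in NBD by 0.49 ± 0.08 (SE; limma adjusted p = 0.00479) in a call that held in all 22 alternatives. In BD against NBD it was higher by 0.32 (adjusted p = 0.0499), a call lost in 10 of 11 fits without 1 array (without BD_VNS 1, 2, 3 or 4, BD 1, 3 or 6, or NBD 1, 3 or 4; adjusted p 0.0508 to 0.208), with array medians set equal (0.0645), in a fit of BD and NBD alone (0.0947), with the 3' to 5' ratio in the model (0.0644) and with a replicate block (0.186). Gss, which completes glutathione synthesis, was lower by 0.26 in BD than in NBD (-0.26 ± 0.07; adjusted p = 0.0465), and lost its call without BD_VNS 3, BD_VNS 4, BD 1, BD 4, BD 6, NBD 1, NBD 3 or NBD 4 (adjusted p 0.0621 to 0.165). The Gss call was also lost in a fit of BD and NBD alone (0.0675), with the 3' to 5' ratio in the model (0.0739), with a replicate block (0.102) and without both BD 4 and BD 6 (-0.18, adjusted p = 0.176).

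Nfe2l2, known as Nrf2, encodes a transcription factor that activates many glutathione and redox genes. Whether it acted on the genes described here was not tested. It was at 11.85, 11.64, 11.56 and 11.88 in the BD_VNS arrays, at 11.41, 11.62, 11.18 and 11.46 in the BD arrays and at 11.10, 10.87 and 10.88 in the NBD arrays. No array of BD_VNS or BD overlapped the NBD arrays. Nfe2l2 was 1.72-fold higher in BD_VNS than in NBD (0.78 ± 0.11, SE; limma adjusted p = 0.00149) and 1.38-fold higher in BD than in NBD (0.47 ± 0.11; adjusted p = 0.0258). The second call was lost without BD 3, BD 6, NBD 3 or NBD 4 (adjusted p 0.0617 to 0.116) and with a replicate block (0.111). BD_VNS against BD did not pass (0.32, 95% interval 0.10 to 0.53, limma adjusted p = 0.0834). Of 14 measured regulators (18 listed), 1 rose in BD against NBD, 1 fell in BD_VNS against BD, and 2 rose and 1 fell in BD_VNS against NBD. The others that passed were Nr3c1, the glucocorticoid receptor gene (0.19 in BD_VNS against NBD, limma adjusted p = 0.0206, lost without NBD 1 or NBD 4 at 0.0671 to 0.0858, with a replicate block at 0.0708 and with the 3' to 5' ratio in the model at 0.0935), and Ahrr, a repressor of the aryl hydrocarbon receptor. Ahrr was lower by 0.17 in BD_VNS than in BD (-0.17, adjusted p = 0.0381) and by 0.18 than in NBD (-0.18, adjusted p = 0.0306). Its calls were lost without BD_VNS 3, BD_VNS 4, BD 1, BD 3, BD 4, BD 6 or NBD 3 against BD (adjusted p 0.0585 to 0.109), and without BD_VNS 3, BD_VNS 4, NBD 3 or NBD 4 against NBD (0.0665 to 0.12). Against BD the Ahrr call was also lost without both BD 4 and BD 6 (-0.15, adjusted p = 0.181). It was lost against BD and against NBD with a replicate block (0.206 and 0.102), with quantile normalization (0.0554 and 0.0549) and in fits of 2 groups alone (0.0643 and 0.0683).

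Of 9 measured redox and hydration genes (11 listed), 2 rose in BD against NBD, 0 passed in BD_VNS against BD, where 1 of 9 had an unadjusted limma p under 0.05, and 3 rose in BD_VNS against NBD. Nqo2, a quinone reductase, was at 9.73 to 9.87 in BD_VNS and 9.77 to 9.85 in BD, against 9.41 to 9.57 in NBD. It was higher by 0.31 ± 0.05 in BD_VNS than in NBD (SE; limma adjusted p = 0.00398) and by 0.33 ± 0.05 in BD than in NBD (adjusted p = 0.00291). Hmox1, which degrades heme, was at 9.21 to 9.62 in BD_VNS and 9.47 to 9.71 in BD, against 8.64 to 9.06 in NBD. Its change was 0.52 ± 0.11 in BD_VNS against NBD (adjusted p = 0.0141, and 0.0575 without NBD 1) and 0.71 ± 0.11 in BD against NBD (adjusted p = 0.00313). With the 3' to 5' ratio in the model, the adjusted p in BD_VNS against NBD was 0.0576 for Nqo2 and 0.171 for Hmox1. Akr7a3, an aldehyde reductase, was higher by 0.23 in BD_VNS than in NBD (adjusted p = 0.022, lost without BD_VNS 4, NBD 1, NBD 3 or NBD 4 at 0.0609 to 0.0905, with the 3' to 5' ratio in the model at 0.0729 and with a replicate block at 0.0949). The rest of the list did not pass, and Nqo1 changed by 0.04 in both comparisons with NBD. In BD against NBD, 7 of the 9 had a positive change and 2 a negative one, Ephx1 (-0.51, limma adjusted p = 0.163) and Ephx2 (-0.47, 0.0812). Of 8 measured transporter genes listed for conjugate export (11 listed), 0 passed in any of the 3 comparisons, and 2, 1 and 1 had an unadjusted limma p under 0.05 in BD against NBD, BD_VNS against BD and BD_VNS against NBD. Of all 11427 genes, 2149, 2578 and 2631 did so in the same comparisons.

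Of 11 measured genes that split or process conjugates (15 listed), 1 fell in BD against NBD, 2 fell in BD_VNS against BD and 3 fell in BD_VNS against NBD, and 0 rose. Dpep1, a membrane dipeptidase that trims glutathione conjugates and leukotriene D4, was at 9.43, 9.67, 9.45 and 9.36 in the BD_VNS arrays, at 9.37, 9.29, 9.22 and 9.37 in the BD arrays and at 10.14, 10.31 and 10.24 in the NBD arrays. Both brain-dead groups lay below the controls without overlap. Dpep1 was 1.68-fold lower in BD_VNS than in NBD (-0.75 ± 0.07, SE; limma adjusted p = 0.00016) and 1.89-fold lower in BD than in NBD (-0.92 ± 0.07; adjusted p = 3.19e-05), and both calls held in all 22 alternatives. The esterase gene Ces1d was lower by 0.39 in BD_VNS than in NBD (-0.39 ± 0.06; adjusted p = 0.0035).

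Of 16 measured genes of other conjugating enzymes (17 listed), 2 fell in BD against NBD, 3 fell in BD_VNS against BD, and 1 rose and 3 fell in BD_VNS against NBD. Nat2, an arylamine N-acetyltransferase, was at 8.36 to 8.66 in BD_VNS and 8.26 to 8.81 in BD, all below the NBD arrays, which averaged 9.09 ± 0.12 (SD, n = 3). It was lower by 0.60 ± 0.12 in BD_VNS than in NBD (-0.60, SE; limma adjusted p = 0.009) and by 0.58 ± 0.12 in BD than in NBD (-0.58, adjusted p = 0.0129, 0.0681 without NBD 3, and 0.0823 without both BD 4 and BD 6). With the 3' to 5' ratio in the model its adjusted p in BD_VNS against NBD was 0.13. Hpgds, the sigma class glutathione transferase that makes prostaglandin D2 in mast cells and other blood-derived cells, was at 7.42, 7.64, 7.36 and 7.12 in the BD_VNS arrays, against 8.01, 7.78, 7.85 and 7.83 in the BD arrays. The groups did not overlap, and the change was -0.48 ± 0.09 (SE; limma adjusted p = 0.0139). BD_VNS 2 was again the highest BD_VNS array and BD_VNS 4 the lowest, the same ends as in the macrophage list, whose part was not tested. In the 3' to 5' ratio BD_VNS 2 was the lowest BD_VNS array (0.75) and BD_VNS 4 the highest (1.10). The methyltransferase gene Inmt changed by -0.49 ± 0.11 in BD_VNS against BD (adjusted p = 0.0255), a call lost without BD_VNS 1, BD_VNS 3, BD_VNS 4, BD 1 or BD 4 (adjusted p 0.0574 to 0.0809) and with the 3' to 5' ratio in the model (0.0538). The tyrosylprotein sulfotransferase gene Tpst1 changed by -0.26 ± 0.04 in BD_VNS against BD (adjusted p = 0.00779) and by contrast with Inmt kept its call in each fit without 1 array. Without both BD 4 and BD 6, Hpgds, Inmt and Tpst1 had adjusted p of 0.0665, 0.111 and 0.0502 in this comparison.

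**Figure D4:**
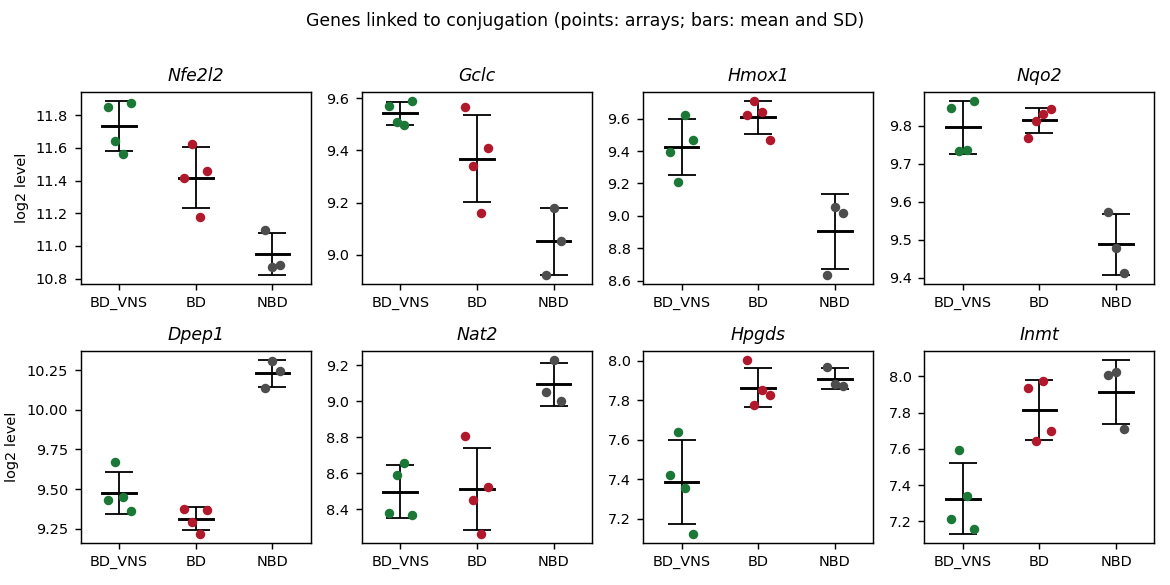
Log2 level (vertical axis) of 8 genes linked to conjugation in each array of BD_VNS (n = 4), BD (n = 4) and NBD (n = 3); bars give mean and SD, and each vertical axis has its own range and does not start at 0. The 8 genes were picked from those that passed in at least 1 comparison. Nfe2l2 averaged 11.73 in BD_VNS and 11.42 in BD, against 10.95 in NBD, and Dpep1 averaged 9.48 in BD_VNS and 9.31 in BD, against 10.23 in NBD.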

How the data were processed

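Per the labels, total RNA was isolated with Trizol and made into biotin-labelled cRNA for Affymetrix arrays. The deposited table holds log2 values, a scale read from their range (5.36 to 14.48), since no label states it. The authors' normalization, software and filters are not stated in any source used. Each probe set carries an Entrez gene number. Of 11484 probe sets, 57 controls were left out and the other 11427 were all tested. Symbols came from the platform annotation for 11018 and 409 had none here.

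Arrays were grouped by title and put into 1 linear model in limma 3.58.1 (lmFit and eBayes, R 4.3.3). Each p was 2-sided and adjusted by Benjamini and Hochberg over all 11427 genes, and a gene passed under 0.05. The fit was tested on simulated data with independent noise for each gene. Those data held no effect shared by the genes of an array, so they cannot show how stable these calls are. Intervals are 95% intervals from the moderated fit. The number of arrays limits the precision. The genes, lists, motifs and alternatives were chosen with earlier results of these data known. Every conjugation gene that passed is named, and of each linked list up to 4 genes that passed could be named per comparison. Some linked genes that passed were only counted. These were Ndst1 in BD against NBD, Dpep2 and Ces1d in BD_VNS against BD, and Tpmt, Inmt, Hpgds and Dpep2 in BD_VNS against NBD. Lists were described by counts, without a test.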

Additional observations from a re-analysis of the deposited data

Results flagged for a closer look

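Of 60 sets of 4 arrays (30 genes in BD_VNS and in BD), 1 held an array set apart from the others, and chance alone marks about 1 set in 20. Gsto2, which encodes an omega class glutathione transferase, was at 7.04 in BD_VNS 2 and at 7.19 to 7.21 in the other 3 BD_VNS arrays. The gap filled 0.853 of the range of the group, above Dixon's critical value for 4 arrays. Gsto2 passed in no comparison.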

How the results depend on the processing

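All 434 alternative values of the 20 results in which a conjugation gene passed kept their direction, and 89 no longer passed. Sult1a1 in both comparisons with NBD and Gsta1 in BD_VNS against NBD passed in every alternative that tested them. In BD against NBD the count of conjugation genes that passed was 7, and it was 3 with a replicate block and 2 without BD 4 and BD 6. In BD_VNS against BD it was 3, and 0 without these arrays. In BD_VNS against NBD it was 10, and 2 with the 3' to 5' ratio in the model. Calls over all genes fell in the same fits, from 655 to 363 and 293, from 635 to 152 and from 965 to 363. Leaving out 1 array gave 3 to 8 conjugation genes in BD against NBD, 1 to 3 in BD_VNS against BD and 4 to 11 in BD_VNS against NBD. Over all genes, leaving out 1 array gave 317 to 882, 279 to 1108 and 494 to 1638 calls. Over all genes, array weights gave 1642, 1628 and 2599 calls, against 655, 635 and 965. The counts of conjugation genes with array weights were 10, 4 and 12. The cause of these changes was not tested. Where arrays were left out, their number and their content changed together and cannot be told apart. Same-numbered arrays did not deviate together (9 pairs, r from -0.24 to 0.07, none over 0.1), so the replicate block pairs arrays by number alone. With array medians set equal, and with quantile normalization, the counts were again 7, 3 and 10. Genes under the 25th or 50th percentile were not tested where that filter was used. No detection calls were used here, so signal over background is unknown.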
